A study of Gallus gallus with 9 samples.

Results

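The smooth muscle genes described here are ACTA2, ACTG2, TAGLN, CNN1 and MYH11, taken as every probe set of the array whose annotated gene symbol is 1 of these 5. Of the 5, 4 had a probe set, 1 each, among 13009 named genes with a probe set, and CNN1 was not analysed here. All 4 probe sets passed the filter on low signal, as did 11675 named genes in all.

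The samples are explants of chick splanchnic mesoderm, labelled AHF (anterior heart field), each read on its own Affymetrix array, 9 in all. Untreated explants were sampled at 0 h (1 array), 3 h (1 array), 12 h (2 arrays, A and B) and 24 h (1 array) after plating. Explants that received human recombinant BMP4 at 200 ng/ml were sampled at 3 h (1 array), 12 h (2 arrays, A and B) and 24 h (1 array). All cultured explants lay on a collagen drop in medium with fetal calf serum and chick embryo extract, and these additions were thus shared by both arms. The labels do not say whether A and B came from separate explants, and p-values then reflect no more than the spread of these samples, which may be technical.

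Smooth muscle cells contract through actin filaments and a non-sarcomeric myosin. ACTA2 and ACTG2 encode the vascular and the enteric smooth muscle actin, TAGLN encodes transgelin (SM22), an actin-bundling protein, CNN1 encodes calponin, which binds actin and inhibits the myosin ATPase, and MYH11 encodes the smooth muscle myosin heavy chain. ACTA2 and TAGLN are read early in smooth muscle differentiation and are also expressed in embryonic heart muscle and in activated fibroblasts, whereas MYH11 is read as the most restricted of these genes. Serum response factor (SRF), with the coactivator myocardin or the actin-sensing coactivators of the MRTF family, drives their transcription. Anterior heart field progenitors give rise to heart muscle of the outflow tract and right ventricle and to smooth muscle at the base of the great arteries.

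Signals are given on the deposited linear scale. Differences are log2 differences of signal + 27.79, and ± marks the standard error from limma, a linear model fitted across 28329 probe sets. A gene is said to have risen or fallen only where the Benjamini-Hochberg adjusted p over these probe sets was under 0.05. The 12 h samples are the only replicated ones, so comparisons of single arrays borrow the spread of the 12 h arrays. The median signal of an array was 67.17 to 67.67, which serves as a mark of dimness below. RNA integrity, read as the 3′ to 5′ ratio of the ACTB controls, gave values of 3.72 to 5.67. The lowest ratio was in the untreated 24 h array and the highest in the BMP4 24 h array. Differences between the arms at 24 h alone rest on these arrays, and the part of the ratio in them was not tested. Of 13 markers of splanchnic mesoderm and the anterior heart field, 11 were tested. ISL1 (5402 to 11120.0) and NKX2-5 (4049 to 9211) were bright in every array, while MEF2C (9.56 to 117) and FGF10 (13.3 to 188) were dimmer than the median of their arrays in some. So were TBX1 (36.8 to 224), EYA1 (6.51 to 102.5) and GATA4 (35.65 to 73.35). FGF8 was 2209 untreated and 126 with BMP4 at 24 h. With BMP4 over 3, 12 and 24 h 2 of the 11 rose and 1 fell, where 1.2% of all probe sets were called. From 3 h to 24 h over both arms none rose and 2 fell, where 6.59% were called.

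Over both arms, ACTG2 rose with time in culture, and it was the only 1 of the 4 genes called in any of 13 comparisons as fitted here. No smooth muscle gene passed the test for BMP4. ACTA2 was near 2 times brighter with BMP4 at 12 and 24 h, TAGLN was bright in every array from 0 h on, and MYH11 was dim in all arrays but the BMP4 24 h array.

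ACTA2, on chromosome 6 (19993995 to 20050197, GRCg7b), had a signal of 85.7 in the untreated 0 h array and 103 in the untreated 3 h array. It was 87.3 (A) and 127 (B) in the untreated 12 h arrays and 158 in the untreated 24 h array. In the BMP4 arm it was 80.5 at 3 h, 177 (A) and 264 (B) at 12 h, and 298 at 24 h. All 9 values lie above the median of their arrays. Both BMP4 12 h arrays were brighter than both untreated 12 h arrays, and the BMP4 24 h array was the brightest of all, while at 3 h the BMP4 array was the dimmest. The 12 h means were 107 ± 27.9 untreated and 220.1 ± 61.4 with BMP4 (SD, n = 2).

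The signal ratio of BMP4 over untreated ACTA2 was 0.785 at 3 h, 2.02 (A) and 2.08 (B) at 12 h, and 1.88 at 24 h. The 12 h ratios divide arrays of the same letter, a pairing the labels do not give, so their closeness is no measure of spread. At 12 h the fitted log2 difference was 0.87 ± 0.32 (95% interval 0.16 to 1.59), with an unadjusted p of 0.0214 and an adjusted p = 0.434 in limma. At 24 h it was 0.81 ± 0.45 (adjusted p = 0.615 in limma) and at 3 h it was -0.27 ± 0.45. Over 3, 12 and 24 h together the difference was 0.57 ± 0.26 (interval 0.02 to 1.12, adjusted p = 0.45 in limma). The intervals at 12 h and over all times leave out 0, and the adjusted values do not pass. The BMP4 effect at 12 h exceeded that at 3 h by 1.14 ± 0.56 (adjusted p = 0.981 in limma), a difference that was not called. Within the BMP4 arm ACTA2 at 12 h stood 1.17 ± 0.39 above 3 h (adjusted p = 0.23 in limma), against 0.03 ± 0.39 within the untreated arm.

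Ordered by level, BMP4 3 h, untreated 0 h, untreated 3 h and untreated 12 h came lowest for ACTA2, with gaps between neighbours no larger than the pooled SD of the 12 h pairs (0.332 on the log2 scale). The steps up to untreated 24 h, then BMP4 12 h, then BMP4 24 h were 0.48, 0.39 and 0.41, each larger than that SD. That SD describes single arrays, while a step is a difference of group means that were first sorted, so this is no test. The fitted standard error was 0.39 both for untreated and for BMP4 24 h against 12 h.

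**Figure D1:**
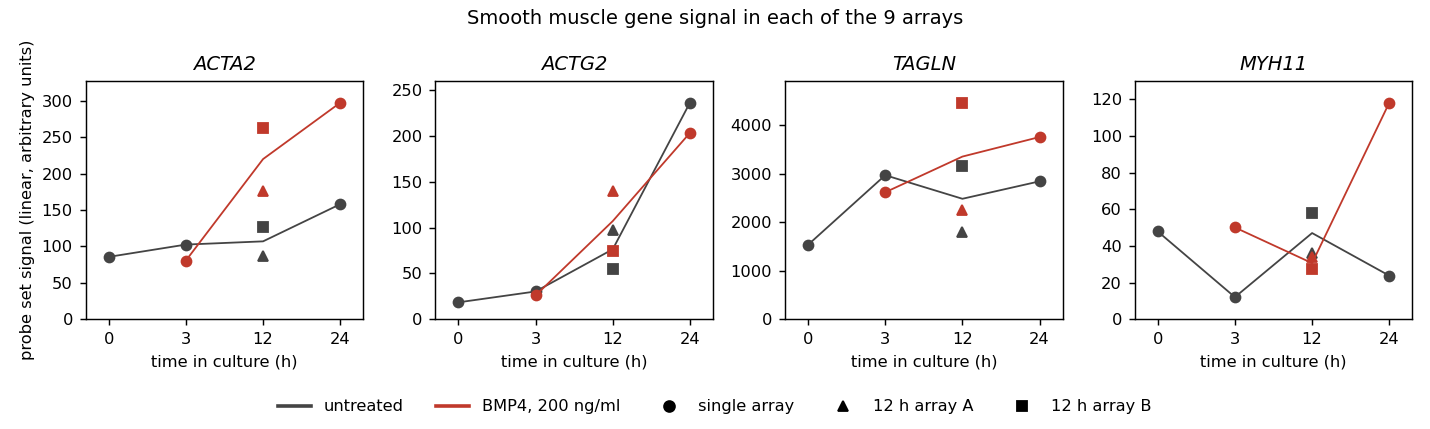
Probe set signal (y, linear scale from 0, separate for each gene) against time in culture (x, hours) for ACTA2, ACTG2, TAGLN and MYH11. Each point is 1 array, grey for untreated and red for BMP4, with triangles and squares for the 12 h arrays A and B, and lines join group means. ACTA2 separates by arm from 12 h on, ACTG2 climbs in both arms, TAGLN A and B arrays differ within each arm, and MYH11 is highest in the BMP4 24 h array (118).

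ACTG2, on chromosome 22 (3101399 to 3104053, GRCg7b), had a signal of 18.4 in the untreated 0 h array and 30.2 in the untreated 3 h array. It was 97.6 (A) and 54.9 (B) in the untreated 12 h arrays and 236 in the untreated 24 h array. The BMP4 arrays gave 25.85 at 3 h, 139 (A) and 74.7 (B) at 12 h, and 203 at 24 h. The 0 and 3 h arrays of both arms were the 3 dimmest, the 12 h arrays lay between, and the 24 h arrays were the 2 brightest. The arms overlapped at 12 h, where the means were 76.2 ± 30.2 untreated and 107 ± 45.7 with BMP4 (SD, n = 2).

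The 0 h and 3 h signals of ACTG2 lay under the 40th percentile of their arrays, and the table used here gives no detection calls, so no fold is read from them. In the fit over both arms ACTG2 rose by a log2 difference of 2.15 ± 0.37 from 3 h to 24 h (interval 1.34 to 2.95, adjusted p = 0.00386 in limma), with the same direction in both arms. Of all probe sets tested, 6.59% were called in that comparison and 3.72% were called higher. The size depends on the amount added before the logarithm, because the early signals lie near or under it: the log2 difference was 2.66 with 8 added and 1.59 with the median of the table added. From 3 h to 12 h the difference was 1.05 ± 0.32 (adjusted p = 0.111 in limma), where 3.15% of all probe sets were called. From 0 h to 24 h without BMP4 it was 2.52 ± 0.54 (adjusted p = 0.0537 in limma), where 1.62% were called. That difference stayed at 2.52 when any 1 of the 4 arrays at 12 h was left out, because none of them enters it. Leaving 1 out changed only the spread borrowed to test it.

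BMP4 made no called difference to ACTG2. The ratio of BMP4 over untreated was 1.43 (A) and 1.36 (B) at 12 h and 0.86 at 24 h. These 12 h ratios also divide arrays of the same letter, which the labels do not pair, and the arms overlapped there. The fitted difference over 3, 12 and 24 h was 0.10 ± 0.26, and its interval of -0.46 to 0.67 spans effects of either sign. In order of level the 0 and 3 h groups of ACTG2 did not differ beyond the 12 h SD of 0.464, nor did the 12 h groups of the 2 arms or the 24 h groups of the 2 arms. The steps from 3 h to 12 h (0.81) and from 12 h to 24 h (0.82) in that order exceeded it. This is again no test, and the fitted standard error was 0.47 for untreated 12 h against 3 h and for BMP4 24 h against 12 h.

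TAGLN, on chromosome 24 (5262542 to 5265319, GRCg7b), had a signal of 1533 in the untreated 0 h array and 2968 in the untreated 3 h array. It was 1806 (A) and 3158 (B) in the untreated 12 h arrays and 2842 in the untreated 24 h array. With BMP4 it was 2616 at 3 h, 2241 (A) and 4463 (B) at 12 h, and 3756 at 24 h. The 0 h array was the dimmest, and in both arms B was brighter than A. All 9 values stood between the 88.6th and 95.8th percentile of their arrays.

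At 12 h TAGLN in B was 1.75 times A untreated and 1.99 times A with BMP4. The ratio of BMP4 over untreated was 0.881 at 3 h, 1.24 (A over A) and 1.41 (B over B) at 12 h, and 1.32 at 24 h. The labels do not pair the 12 h arrays by letter, and ratios across letters would differ. The 12 h means were 2482 ± 956 untreated and 3352 ± 1570.0 with BMP4 (SD, n = 2). The ACTB 3′ to 5′ ratio was 5.44 and 5.5 in the A arrays and 3.8 and 4.26 in the B arrays, and its part in the TAGLN difference was not tested. Over 3, 12 and 24 h the fitted BMP4 difference was 0.26 ± 0.21 (interval -0.21 to 0.72, adjusted p = 0.78 in limma), and it ran from 0.029 to 0.42 when 1 of the 4 arrays at 12 h was left out.

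From 0 h to 3 h without BMP4 TAGLN stood 0.94 ± 0.45 higher (adjusted p = 0.58 in limma), and from 3 h to 24 h over both arms it differed by 0.23 ± 0.30. Of all probe sets, 0.328% were called from 0 h to 3 h. No neighbouring groups in the order of TAGLN levels, from untreated 0 h at the bottom to BMP4 24 h at the top, differed by more than the 12 h SD of 0.633.

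MYH11, on chromosome 14 (7581494 to 7638264, GRCg7b), had a signal of 47.9 in the untreated 0 h array and 12.0 in the untreated 3 h array. It was 35.9 (A) and 58.2 (B) in the untreated 12 h arrays and 23.75 in the untreated 24 h array. BMP4-treated explants gave 50.1 at 3 h, 33.95 (A) and 27.3 (B) at 12 h, and 118 at 24 h. Only the BMP4 24 h array exceeded the median of its array, and the other 8 values lay under it. Without detection calls, whether the transcript was above background in those arrays is not known.

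Most of these signals are too dim for a ratio of BMP4 over untreated MYH11 to be read. The fitted difference was 1.5 ± 0.56 at 24 h (unadjusted p = 0.0223, adjusted p = 0.368 in limma), -0.34 ± 0.39 at 12 h and 0.97 ± 0.56 at 3 h. The effect at 24 h exceeded that at 12 h by 1.85 ± 0.68 (adjusted p = 0.751 in limma). The high value at 24 h rests on 1 array. The ACTB 3′ to 5′ ratio was also highest in that array (5.67) and lowest in the untreated 24 h array (3.72), and its part was not tested.

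Counted over the 4 genes, none was called for BMP4 over 3, 12 and 24 h, where 1.2% of all probe sets were called and 1 of the 4 (ACTA2) had an unadjusted p under 0.05 in limma. None was called for BMP4 at 12 h (0.614% of all probe sets, unadjusted 1 of 4), at 24 h (0.72%, unadjusted 1 of 4) or at 3 h (0.0141%, unadjusted 0 of 4). None was called for the effect at 24 h against that at 3 h (0.06% of all probe sets, unadjusted 0 of 4). Nor was any called between neighbouring times within an arm, where the background was 0.501% (untreated, 3 h to 12 h), 0.0388% (untreated, 12 h to 24 h), 1.33% (BMP4, 3 h to 12 h) and 0.688% (BMP4, 12 h to 24 h). In these, with an unadjusted p under 0.05 in limma, stood 0 of 4, 1 of 4 (ACTG2), 2 of 4 (ACTA2 and ACTG2) and 1 of 4 (MYH11). Of all 28329 probe sets, 2799, 2068, 3576 and 2957 had an unadjusted p under 0.05 in these comparisons. For BMP4 the numbers were 2959 over 3, 12 and 24 h, 2482 at 12 h, 2868 at 24 h and 1212 at 3 h. For the effect at 24 h against that at 3 h the number was 2023. Beside called shares this low, a count of 0 of 4 called does not set these genes apart. The median BMP4 difference of all probe sets lay at -0.0063.

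**Figure D2:**
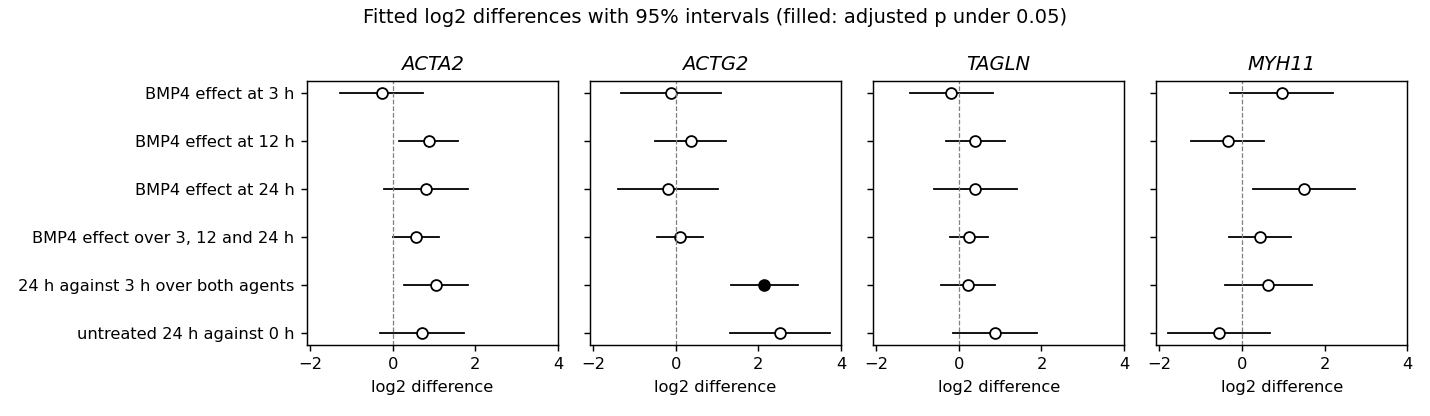
Fitted log2 difference (x) of ACTA2, ACTG2, TAGLN and MYH11 for 6 comparisons (rows), with 95% intervals from limma. Filled points have an adjusted p under 0.05, and the only filled point is ACTG2 at 24 h against 3 h (2.15). ACTA2 intervals for BMP4 at 12 h and over all times lie above 0 without passing the adjusted test.

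The genes that work beside these proteins were followed in a list of 34 contractile and cytoskeletal companions, 29 of which had a probe set and 26 of which were tested. With BMP4 over 3, 12 and 24 h 2 of the 26 rose and none fell, against 1.2% of all probe sets, and the median difference was 0.119 against -0.0063 for all. CSRP2, a LIM protein of smooth muscle, rose by 1.23 ± 0.16 (adjusted p = 0.00222 in limma), and FHL2, a LIM cofactor of SRF, rose by 0.77 ± 0.17 (adjusted p = 0.0445 in limma). The FHL2 call was lost when any 1 of the 4 arrays at 12 h was left out, and the CSRP2 call was not. Both calls were lost in a fit whose variances did not follow the mean signal. CSRP2 signal was 2542 at 0 h, 3772 at 3 h, 5127 and 6907 at 12 h and 6287 at 24 h without BMP4. With BMP4 it was 5611 at 3 h, 16710 and 13196 at 12 h and 20477 at 24 h, brighter than untreated at each time. Its 3 probe sets did not all share the sign, and the values given are those of the brightest. CSRP1, its close relative, stood 0.57 ± 0.15 higher (adjusted p = 0.0944 in limma), and the myosin regulatory light chain MYL9 0.39 ± 0.12 higher (adjusted p = 0.199 in limma). MYLK, the kinase that activates smooth muscle myosin, differed by -0.29 ± 0.20 and DES, the muscle intermediate filament protein, by 0.52 ± 0.24, neither called.

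Several companions rose with time in culture. From 3 h to 24 h over both arms 6 of the 26 rose and none fell, where 6.59% of all probe sets were called, and the median was 0.278 against -0.0303 for all. CALD1, caldesmon, which binds actin and myosin, rose by 3.04 ± 0.26. Its signal went from 658 to 4291 untreated and from 552 to 6196 with BMP4 between 3 h and 24 h. HSPB1, a small heat shock protein, rose by 2.13 ± 0.22, FHL1 by 1.54 ± 0.41 and CSRP2 by 1.30 ± 0.22. The focal adhesion protein TNS1 rose by 0.72 ± 0.16 and the actin crosslinker ACTN1 by 0.62 ± 0.12. Adjusted p of these 6 ran from 2.3e-05 (CALD1) to 0.0415 (FHL1) in limma. The 4 probe sets of TNS1 did not all share the sign, and the FHL1 call, which rests on dim signals at 3 h (23.5 and 16.7), was lost without the untreated 12 h array A. It was also lost with 8 added before the logarithm, with a stricter filter and in a fit whose variances did not follow the mean signal. The ACTN1, CSRP2 and TNS1 calls were lost in that last fit too. Without BMP4, FHL1 was 75.3 at 0 h and 112 at 24 h.

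From 0 h to 24 h without BMP4, 3 of the 26 companions rose and 1 fell, where 1.62% of all probe sets were called. HSPB1 rose by 3.95 ± 0.31, from a signal of 295 to 4953, CALD1 by 1.84 ± 0.28 and CSRP2 by 1.30 ± 0.24. FHL2 fell by 1.62 ± 0.30 on the log2 scale, from 2045 to 648, and in the BMP4 24 h array it was 1628. The 0 h to 24 h calls of HSPB1, CALD1, CSRP2 and FHL2 were all lost in a fit whose variances did not follow the mean signal. Those of CSRP2 and FHL2 were also lost with no filter, and both ends of this comparison are single arrays. At 12 h and at 24 h taken alone, CSRP2 was the only companion called for BMP4, at 1.32 ± 0.17 and 1.70 ± 0.24.

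The regulators of smooth muscle genes were a list of 36 symbols, with MRTFA also listed as MKL1 and MRTFB as MKL2. Of these symbols 27 were tested. With BMP4 over 3, 12 and 24 h 2 rose and none fell, against 1.2% of all probe sets. MYOCD, which encodes myocardin, rose by 1.04 ± 0.23 (adjusted p = 0.0412 in limma). Its signal was 408 at 0 h, 146 at 3 h, 189 and 210 at 12 h and 150 at 24 h without BMP4, and 223, then 569 and 340, then 497 with BMP4. Each BMP4 value thus exceeded the untreated value of its time, and the 0 h value exceeded all later untreated ones. The MYOCD call was lost when any 1 of the 4 arrays at 12 h was left out. PRRX1, a homeobox factor of embryonic mesenchyme, rose by 1.02 ± 0.10 (adjusted p = 0.000552 in limma). Its signals were 2878 to 4589 untreated and 6200 to 8143 with BMP4. The PRRX1 call and the MYOCD call were both lost in a fit whose variances did not follow the mean signal.

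SRF itself differed by 0.29 ± 0.16 (adjusted p = 0.593 in limma), and the MRTF coactivator genes, annotated as MKL1 and MKL2, by 0.22 ± 0.19 and 0.20 ± 0.24, none of them called. JAG1, a Notch ligand, stood at -0.90 ± 0.22 (adjusted p = 0.0799 in limma) and HEY1, a Notch-responsive repressor, at -0.61 ± 0.15 (adjusted p = 0.0862 in limma). At 24 h alone HEY1 fell by 1.37 ± 0.17 on the log2 scale with BMP4, to 4191 from 10903 in the untreated array. From 3 h to 24 h over both arms 2 regulators fell, HEY1 by 1.08 ± 0.21 and TCF21, a bHLH factor of visceral and pharyngeal mesoderm, by 0.97 ± 0.26 on the log2 scale, the TCF21 call being lost without either A array at 12 h. These are 2 of 27, a share near the 6.59% of all probe sets called there. Between 3 h and 24 h the HEY1 signal went from 14881 to 10903 untreated and from 13871 to 4191 with BMP4, with 1 array for each value. For the BMP4 effect at 24 h against that at 3 h, 0 of the 27 regulators were called, where 0.06% of all probe sets were called. The list median was 0.0913 for BMP4 and 0.0709 for 24 h against 3 h.

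SRF, TGF-beta and YAP also drive genes outside muscle, and 16 of 19 listed symbols of such genes were tested. The list holds CCN1 also as CYR61 and CCN2 also as CTGF. None of the 16 was called for BMP4 over the 3 times (median 0.0262, 1 with an unadjusted p under 0.05 in limma) or from 3 h to 24 h (median 0.105, 4 unadjusted), where 1.2% and 6.59% of all probe sets were called. Of all 28329 probe sets, 2959 and 5786 had an unadjusted p under 0.05 in these comparisons. From 0 h to 24 h without BMP4 only TGFB2, a TGF-beta ligand, was called, at 1.39 ± 0.28 (adjusted p = 0.04 in limma). Its signal went from 1020.4 to 2722. The TGFB2 call was lost with no filter, with a stricter filter and in a fit whose variances did not follow the mean signal. EGR1, an immediate early SRF target, ran from 753 to 2883, and CCN2, a matricellular YAP target, from 341 to 648, over the 9 arrays.

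**Figure D3:**
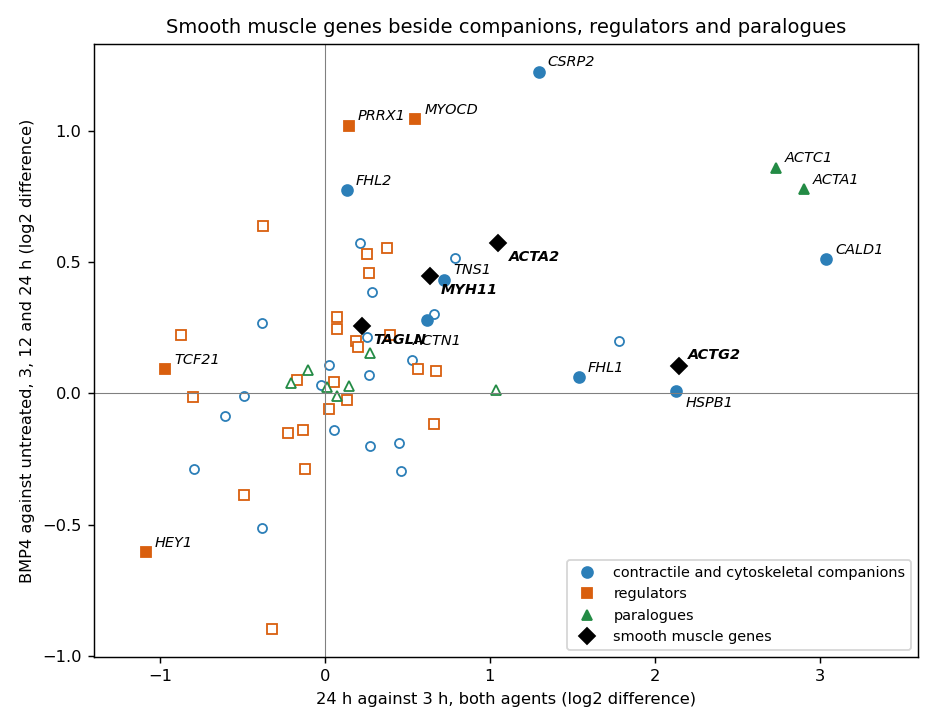
Log2 difference of BMP4 against untreated over 3, 12 and 24 h (y) against the log2 difference of 24 h and 3 h over both arms (x) for the 26 companions, 27 regulators and 9 paralogues tested. Filled and named points of these lists passed the test in at least 1 of both comparisons, and black diamonds are the smooth muscle genes, filled whether called or not. ACTG2 lies beside HSPB1 at a time difference near 2.1 with a BMP4 difference near 0, while CSRP2, MYOCD and PRRX1 stand above 1 for BMP4.

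The nearest relatives of the smooth muscle genes in sequence are other actins, transgelins, calponins and non-muscle myosins, and 9 of 10 such paralogues were tested. With BMP4 over 3, 12 and 24 h 2 of the 9 rose, where 1.2% of all probe sets were called. These were the sarcomeric actins ACTC1 (0.86 ± 0.15, adjusted p = 0.015 in limma) and ACTA1 (0.78 ± 0.15, adjusted p = 0.0252 in limma). Neither call held without the BMP4 12 h array A or without B, and that of ACTA1 was lost without the untreated A array too. From 3 h to 24 h ACTC1 and ACTA1 were again the 2 called, at 2.74 ± 0.22 and 2.90 ± 0.22, against 6.59% of all probe sets. ACTC1 signal without BMP4 was 4026 at 0 h, 2379 at 3 h, 3536 and 5696 at 12 h and 13532 at 24 h. Under BMP4 the signal was 3024 at 3 h, 10101 and 9700.0 at 12 h and 23995 at 24 h. Like ACTA2 it was brighter with BMP4 in both 12 h arrays and at 24 h, and like ACTG2 it was brightest at 24 h in each arm. The cytoplasmic actins ACTB (29175 to 34738) and ACTG1 (20844 to 24469.6) varied little over the 9 arrays. MYH9 and MYH10, the non-muscle myosins, CNN2 and CNN3, calponins of non-muscle cells, and TAGLN3 were not called for BMP4 or from 3 h to 24 h. The vertebrate muscle actins are almost identical in protein sequence, and whether the ACTA2 and ACTG2 probe sets also bind ACTC1 or ACTA1 RNA was not tested.

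**Figure D4:**
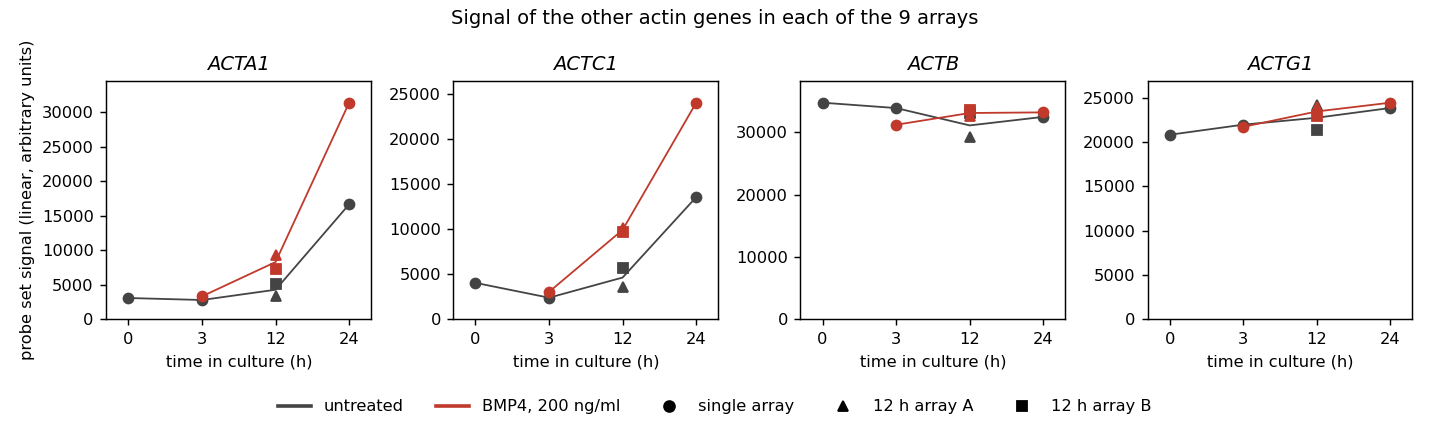
Probe set signal (y, linear from 0, separate for each gene) against time in culture (x, hours) for ACTA1, ACTC1, ACTB and ACTG1, with points, colours and lines as in the plot of smooth muscle gene signal. ACTA1 and ACTC1 are brightest at 24 h and brighter with BMP4 than without from 12 h on, and ACTB and ACTG1 stay nearly level.

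Markers of heart muscle were read in the same arrays. Of 14 cardiomyocyte markers, 12 were tested. For BMP4 over 3, 12 and 24 h 7 rose and none fell (median 0.808; 4 to 6 rose when 1 of the 12 h arrays was left out), and from 3 h to 24 h 9 rose and none fell (median 3.01). Of all probe sets 1.2% and 6.59% were called in these comparisons, with medians of -0.0063 and -0.0303. In a fit whose variances did not follow the mean signal, only 4 probe sets in all were called for BMP4. That bounds the BMP4 count for these markers. Their summed signal was 21175 at 0 h, 12566 at 3 h, 18470.0 (A) and 28073 (B) at 12 h and 58695 at 24 h without BMP4. With BMP4 it was 17836 at 3 h, 48271 (A) and 46014 (B) at 12 h and 117813 at 24 h. MYH7 (8.56 to 144), NPPA (39.4 to 167) and RYR2 (44.0 to 93.9) were among the dim markers of the list, and MYBPC3 was 2.92 and 5.66 in the untreated 0 h and 3 h arrays, while TNNT2 (7021 to 28677) was bright from 0 h on. The part of heart muscle RNA in the ACTA2 and ACTG2 signals was not tested. In tissue of several cell types, more cells of a type and more RNA per cell cannot be told apart.

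Other cell types that express some of these genes were measured in the same way. Of 6 pericyte markers, ABCC9 (2.66 ± 0.35) and KCNJ8 (1.41 ± 0.23), both potassium channel subunits, rose with BMP4 (the KCNJ8 call was lost without the BMP4 12 h array A), while PDGFRB, RGS5, CSPG4 and ANPEP were not called, against 1.2% of all probe sets. The summed pericyte signal was 1739 to 2093 untreated and 2339 to 4577 with BMP4. At 24 h ABCC9 was 145 untreated and 2537 with BMP4, and KCNJ8 was 115 and 462. RGS5 was 134 and 246 there, while PDGFRB (464 and 450), ANPEP (1138 and 815) and CSPG4 (97.6 and 66.1) were not brighter with BMP4. From 3 h to 24 h over both arms PDGFRB fell (-1.065 ± 0.22) and ABCC9 rose (1.91 ± 0.49). ABCC9 signal went from 104 to 145 untreated and from 210 to 2537 with BMP4. None of the 12 fibroblast and matrix markers was called for BMP4 (median 0.0534, 2 with an unadjusted p under 0.05 in limma). From 3 h to 24 h DCN, LUM and VIM rose and FBLN1 fell, and the summed signal was 57562 to 85004 untreated and 73752 to 84727 with BMP4. Of 7 endothelial markers tested none was called for BMP4 (1 unadjusted), and CDH5, KDR and TEK rose from 3 h to 24 h. The 3 probe sets of KDR did not all share the sign in that comparison. TEK without BMP4 was 443 at 0 h, 103 at 3 h and 512 at 24 h, so its 24 h level was near that at 0 h (0.20 ± 0.38). Of 6 endoderm and epithelial markers none was called for BMP4 (2 unadjusted), and CDH1, EPCAM and CLDN3 rose from 3 h to 24 h. SOX2 (0.04 ± 0.36), FOXA2 (-0.21 ± 0.26) and SHH (0.15 ± 0.45) were not called from 3 h to 24 h. Of 7 skeletal muscle markers tested ACTA1 was called for BMP4. From 3 h to 24 h ACTA1, the fast myosin light chain MYL1 (6.41 ± 0.57) and the fast troponin C TNNC2 (0.85 ± 0.17) rose. MYF5, MYF6, CHRNA1 and DES were called in neither comparison. For BMP4 4 of the 7 differences were positive and 3 negative (MYF5 -0.54, MYF6 -0.16, CHRNA1 -0.12). MYF5 (7.79 to 105) and MYF6 (26.9 to 81.8) were dim, and MYOD1, MYOG and PAX7 did not pass the filter. None of the 4 blood markers was called for BMP4 (1 unadjusted). Of all 28329 probe sets, 2959 had an unadjusted p under 0.05 for BMP4 in limma, and 6.59% were called from 3 h to 24 h. The part of these cell types in the smooth muscle gene signals was not tested.

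The smooth muscle genes did not share 1 pattern over the 9 arrays. As a description of arrays that share times and arms, the log2 signals of ACTA2 correlated with those of TAGLN at r = 0.733 and of ACTG2 at r = 0.674. ACTG2 and TAGLN correlated at 0.307, and MYH11 correlated with the others at 0.0982 to 0.315. ACTA2 correlated with ACTC1 at 0.889, with the summed cardiomyocyte markers at 0.887 and with the summed smooth muscle companions at 0.903. Its correlation was nearly as high with ACTA1 (0.842) and with the summed pericyte (0.854), paralogue (0.835), skeletal muscle (0.826) and endoderm and epithelial (0.812) genes. The paralogue sum shares ACTA1 with the skeletal muscle sum and ACTC1 with the cardiomyocyte sum, so these values are not separate readings. ACTA1 gave 16654 of the skeletal muscle sum of 23561 in the untreated 24 h array. The pericyte sum and the endoderm and epithelial sum hold neither gene, and what their values reflect was not tested. ACTG2 correlated with ACTC1 at 0.841, with ACTG1 at 0.895, with ACTA1 at 0.876, and with the summed endoderm and epithelial markers at 0.915, the endothelial ones at 0.906 and the skeletal muscle ones at 0.877. For TAGLN and MYH11 the correlation with ACTC1 was 0.483 and 0.463.

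Among 6106 named genes whose log2 signal ranged over at least 1, the 3 whose pattern was most like that of each gene were taken by Pearson's r over the 9 arrays. For ACTA2 these were TAPBP (0.962), a chaperone of antigen loading, CCDC141 (0.959), a coiled-coil protein, and STON1 (0.955), an endocytic adaptor. TAPBP had signals of 330.0 to 685 in the untreated arrays and at BMP4 3 h, and 537 to 812 in the later BMP4 arrays. For ACTG2 they were ANXA11 (0.985), a calcium-dependent membrane-binding annexin, EZR (0.979), ezrin, which links actin to the membrane, and ATP2C1 (0.974), a Golgi calcium pump. EZR went from 1287 at 0 h to 5181 at 24 h untreated and 5175 at 24 h with BMP4. For TAGLN they were B3GAT2 (0.926), a glucuronyltransferase, TJP3 (0.872), a tight junction scaffold, and RHOC (0.867), a small GTPase. RHOC signal was 141 at 0 h and 312 to 553 in all cultured arrays. For MYH11 they were UNC93A (0.948), PDGFC (0.918), a growth factor, and OVALY (0.902), an ovalbumin relative. UNC93A and PDGFC were brightest in the BMP4 24 h array. OVALY was nearly level there (63.9) and in the untreated 12 h array B (63.5), under the median of both arrays.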

How the data were processed

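RNA of 9 chick explant samples in 7 groups was read on 1 array each. The deposited table holds linear signal intensity per probe set. MAS5 made it, per the submitters' processing notes, and neither its version nor a scaling target is given in the sources used here. The 2% trimmed means of the arrays were 503.66 to 504.72, so no further scaling was applied. The number of arrays limits the precision. Of 38535 probe sets, 96 controls were left out, and 28329 were tested because their signal exceeded the 40th percentile of their own array on at least 2 of 9 arrays. Signal + 27.79, the 25th percentile of the table, was taken to log2 and fitted with limma 3.58.1 in R 4.3.3, with variances that follow the mean signal. Two-sided p-values were adjusted by Benjamini-Hochberg over the 28329 probe sets, with calls at an adjusted p under 0.05.

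BMP4 over 3, 12 and 24 h and culture time over both arms came from a model of time and agent on 8 cultured arrays (4 residual degrees of freedom). Other comparisons came from 7 group means over 9 arrays (2 residual degrees of freedom, all from 12 h arrays, so a lone array is assumed to vary like those). The code was tested on simulated data. Genes were named from the array annotation and chicken RefSeq (GRCg7b): 27168 probe sets carry 1 symbol, 177 several and 11094 none. A gene is represented by its brightest probe set. Every smooth muscle gene is named whatever it showed, together with list genes that were called (else those of lowest p) and the 3 genes most alike in pattern. Names beyond that were chosen after their values were seen. The genes and lists were chosen with earlier results of these data known. Alternatives tried were 2 other added amounts, 2 other filters, quantile normalization, no variance trend, each 12 h array left out, a replicate block, and the 3 h or 24 h pair left out.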

Additional observations from a re-analysis of the deposited data

How the results depend on the processing

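Of 146 recomputed counts of called smooth muscle genes over 13 comparisons, 140 equalled the value reported. The other 6 concern untreated explants: from 0 h to 24 h the count was 0, and 1 without any single 12 h array (lowest 1, highest 1). None of the 12 h arrays enters the comparison of untreated 0 h and 24 h, so leaving 1 out changed only the spread borrowed to test it. ACTG2 from 3 h to 24 h over both arms was called under every alternative run. Of 571 recomputed log2 differences 11 turned sign, all uncalled and all on leaving out 1 of the 12 h arrays. Their ranges over the 4 such fits were -0.088 to 0.19 (ACTG2, BMP4 over all times), -0.25 to 0.17 (TAGLN) and -0.0067 to 0.43 (MYH11) for 12 h against 3 h over both arms, and -0.091 to 0.89 for TAGLN with BMP4 at 12 h. They were -0.71 to 0.089 (TAGLN) and -0.18 to 0.25 (ACTA2) for untreated 12 h against 3 h, -0.15 to 0.65 for TAGLN untreated 24 h against 12 h, and -0.22 to 0.76 and -0.25 to 0.74 for TAGLN with BMP4 from 3 h to 12 h and from 12 h to 24 h. Without the 3 h pair ACTA2 stood at 0.85 ± 0.25 for BMP4 (adjusted p = 0.144 in limma). Counts over all probe sets were less stable, and 69 of 146 moved by over 1.5 times. Without the variance trend the count for BMP4 over all times went from 340 to 4. That for 24 h against 3 h went from 1868 to 429, and that for 12 h against 3 h from 892 to 126. The calls lost without it include those for BMP4 of FHL2, MYOCD, PRRX1, ACTA1 and HEY1 (at 24 h). They also include those of CSRP2 for BMP4 over all times, at 12 h and at 24 h. Lost too were the calls of HSPB1, CALD1, CSRP2 and FHL2 from 0 h to 24 h without BMP4. Leaving out 1 array, the BMP4 count over all times was at lowest 147.

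With the 12 h letters as a replicate block, 1 smooth muscle gene was called for untreated 3 h against 0 h (TAGLN, 0.94 ± 0.19, adjusted p = 0.00247 in limma) and 2 for untreated 24 h against 0 h (ACTG2, adjusted p = 0.00136, and TAGLN, adjusted p = 0.00232 in limma). The block also moved the count over all probe sets from 93 to 1087 and from 458 to 2250 in these comparisons, from 174 to 1106 for BMP4 at 12 h and from 204 to 1367 at 24 h. The labels do not say that A and B mark a shared batch, and the B minus A differences of both arms correlated at only 0.126 over 28329 probe sets.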
